A study of Mus musculus with 12 samples.

Results

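The early growth response genes Egr1, Egr2 and Egr3, the immediate early response genes Ier2, Ier3 and Ier5, and the nuclear receptor gene Nr4a1 were followed through brain myeloid cells prepared in 4 ways. These 7 genes were picked by symbol out of the 31053 genes in the count tables. The cells, mostly microglia, were sorted as positive for CD45 and CD11b from whole brains of 12 male C57BL/6J mice at postnatal day 90, and each library was made from 1 animal. DNC-NONE is cold Dounce homogenization without inhibitors (replicates 1, 2 and 3), DNC-INHIB the same method with inhibitors (replicates 4, 5 and 6), ENZ-NONE a warm enzymatic digestion without inhibitors (replicates 4, 5 and 6), and ENZ-INHIB that digestion with inhibitors (replicates 1, 2 and 3). Dounce homogenization breaks tissue mechanically with a pestle. The inhibitors were actinomycin D and triptolide, which block transcription, from the perfusion onwards, and anisomycin, which blocks translation, in the dissection and digestion buffers. Everything but the enzymatic digestion was done on ice, so enzyme and warmth cannot be told apart. Batch 1 held DNC-NONE 1 and 2, DNC-INHIB 4, ENZ-NONE 4 and 5 and ENZ-INHIB 1, and batch 2 the other 6 libraries.

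Immediate early genes are transcribed within minutes of a stimulus from factors already present in the cell, without new protein synthesis. Their messengers are short-lived, so a transcript count reflects recent transcription. In microglia they respond to growth factors, inflammatory ligands, calcium and stress through kinases that act on serum response factor (SRF) and its partners, on CREB and on NF-kB. Egr1, Egr2 and Egr3 encode zinc finger transcription factors that bind GC-rich sites and are held in check by the corepressors Nab1 and Nab2. Nr4a1 encodes Nur77, an orphan nuclear receptor that restrains inflammatory gene expression in macrophages. Ier2 and Ier5 encode related nuclear proteins, and Ier5 takes part in the heat shock response through HSF1. Ier3 is a target of NF-kB that acts in cell survival.

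In GRCm38 (mm10) coordinates, Egr2 is annotated at chromosome 10 from 67535475 to 67542188, Egr3 at chromosome 14 from 70077203 to 70082614 and Nr4a1 at chromosome 15 from 101254269 to 101274795, all on the plus strand. Ier2 lies at chromosome 8 from 84661331 to 84662852 and Ier5 at chromosome 1 from 155096361 to 155099636, both on the minus strand, and Ier3 at chromosome 17 from 35821684 to 35822923 on the plus strand. No other annotated gene overlapped any of the 7, Egr1 included.

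Promoter sequences are shown because immediate early genes are switched on through factors bound close to their starts. RefSeq windows on GRCm38.p6 were at hand for 4 of the genes, Egr2, Nr4a1, Ier3 and Ier5, and the 250 bases before the start are printed 5′ to 3′ on the gene's strand, with motif matches on either strand in capitals. For Nr4a1, Egr2 and Ier3 the window belongs to a start inside the annotated gene. For Ier3 the gene begins at 35821684 and the window ends at 35821712. RefSeq gives 5 start sites for Egr2, and the window shown was chosen for its matches. The motifs searched were the CArG box bound by SRF, the core TGACG of the CREB site, the EGR site GCGGGGGCG, the AP-1 site TGANTCA and the kB site of NF-kB.
Egr2, chr10:67537619-67537868, plus strand: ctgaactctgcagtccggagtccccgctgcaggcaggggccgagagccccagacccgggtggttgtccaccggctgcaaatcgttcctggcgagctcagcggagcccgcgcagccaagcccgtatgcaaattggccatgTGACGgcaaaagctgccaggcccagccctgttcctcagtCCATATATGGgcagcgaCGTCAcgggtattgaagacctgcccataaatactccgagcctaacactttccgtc
Nr4a1, chr15:101266596-101266845, plus strand: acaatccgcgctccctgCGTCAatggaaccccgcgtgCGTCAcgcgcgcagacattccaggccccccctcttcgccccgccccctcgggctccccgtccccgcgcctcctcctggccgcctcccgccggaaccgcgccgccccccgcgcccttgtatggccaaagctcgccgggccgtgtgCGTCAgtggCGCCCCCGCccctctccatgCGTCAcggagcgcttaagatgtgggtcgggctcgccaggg
Ier3, chr17:35821463-35821712, plus strand: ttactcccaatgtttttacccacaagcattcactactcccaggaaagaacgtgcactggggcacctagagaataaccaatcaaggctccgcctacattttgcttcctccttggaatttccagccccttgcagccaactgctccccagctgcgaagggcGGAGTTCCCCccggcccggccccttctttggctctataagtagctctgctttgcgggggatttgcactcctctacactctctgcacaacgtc
Ier5, chr1:155099637-155099886, minus strand: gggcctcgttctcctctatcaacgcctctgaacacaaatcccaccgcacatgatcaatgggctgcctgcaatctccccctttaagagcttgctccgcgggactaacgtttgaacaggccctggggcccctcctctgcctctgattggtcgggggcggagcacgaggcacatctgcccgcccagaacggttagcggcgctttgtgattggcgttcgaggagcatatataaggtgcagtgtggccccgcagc
A CArG box was present in 4 of the 5 Egr2 windows, but 3 of these overlap and hold the same box, so there are 2 distinct boxes. Of all 32851 windows of the same length, 1.47% held one. In the Egr2 window shown it starts 72 bases before the start site and lies between a TGACG 111 bases before and its reverse complement 55 bases before. The Nr4a1 window held 4 copies of the CREB core, 233, 213, 69 and 40 bases before the start, and an EGR site 60 bases before it. The CREB core occurred in 17.8% of all windows and the EGR site in 2.57%. The Ier3 window held a kB site 92 bases before the start, a match found in 9.55% of windows. The Ier5 window held no match to any of the 5 motifs, and no AP-1 match, present in 6.75% of windows, was found in any window of the 4 genes. None of the matches shown overlap, and a match describes letters only.

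Of 28426 deposited cells, 18827 were kept, 853 to 2185 per library, with 1059783 to 3233159 unique molecular identifiers (UMIs, each standing for 1 captured transcript). All 8 microglia markers were detected in every library, at a summed 34916 to 40767 CPM (UMIs of the genes scaled to an equal total in each library) in ENZ-NONE and 37242 to 40132 in the other groups. Border macrophage markers summed to 227 to 294 CPM in ENZ-NONE and 212 to 518 elsewhere. Monocyte markers ran from 49.1 to 180.2 CPM in ENZ-NONE and from 27.7 to 275 CPM elsewhere. Neutrophil markers ran from 0.918 to 10.99 CPM in ENZ-NONE and from 0 to 3933 CPM elsewhere, highest in DNC-NONE 3. The part of these other cells in the results was not tested beyond leaving out cells with border macrophage, monocyte or dendritic cell markers. Cells with neutrophil markers were not left out in any alternative. Pairs of libraries shared 0 to 12 of their cell barcodes. In CPM, ENZ-NONE 6 was the highest ENZ-NONE library for 6 of the 7 genes and DNC-NONE 1 the highest DNC-NONE library for Egr1, Ier2, Ier3 and Nr4a1, so some results are also given without both, a choice made after seeing the data.

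Together the 7 genes gave 1145, 804 and 3472 UMIs in ENZ-NONE 4, 5 and 6, or 526, 523 and 1272 CPM. The other 9 libraries held 193 to 786 UMIs of them, or 182 to 315 CPM, with the highest value in DNC-NONE 1. No ENZ-NONE library overlapped the rest. Ier5 alone made up 56.1% to 63.9% of these UMIs in ENZ-NONE and 68.4% to 88.7% elsewhere, while Egr1 made up 11.6% to 13.4% in ENZ-NONE and 0% to 3.94% elsewhere.

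**Figure D1:**
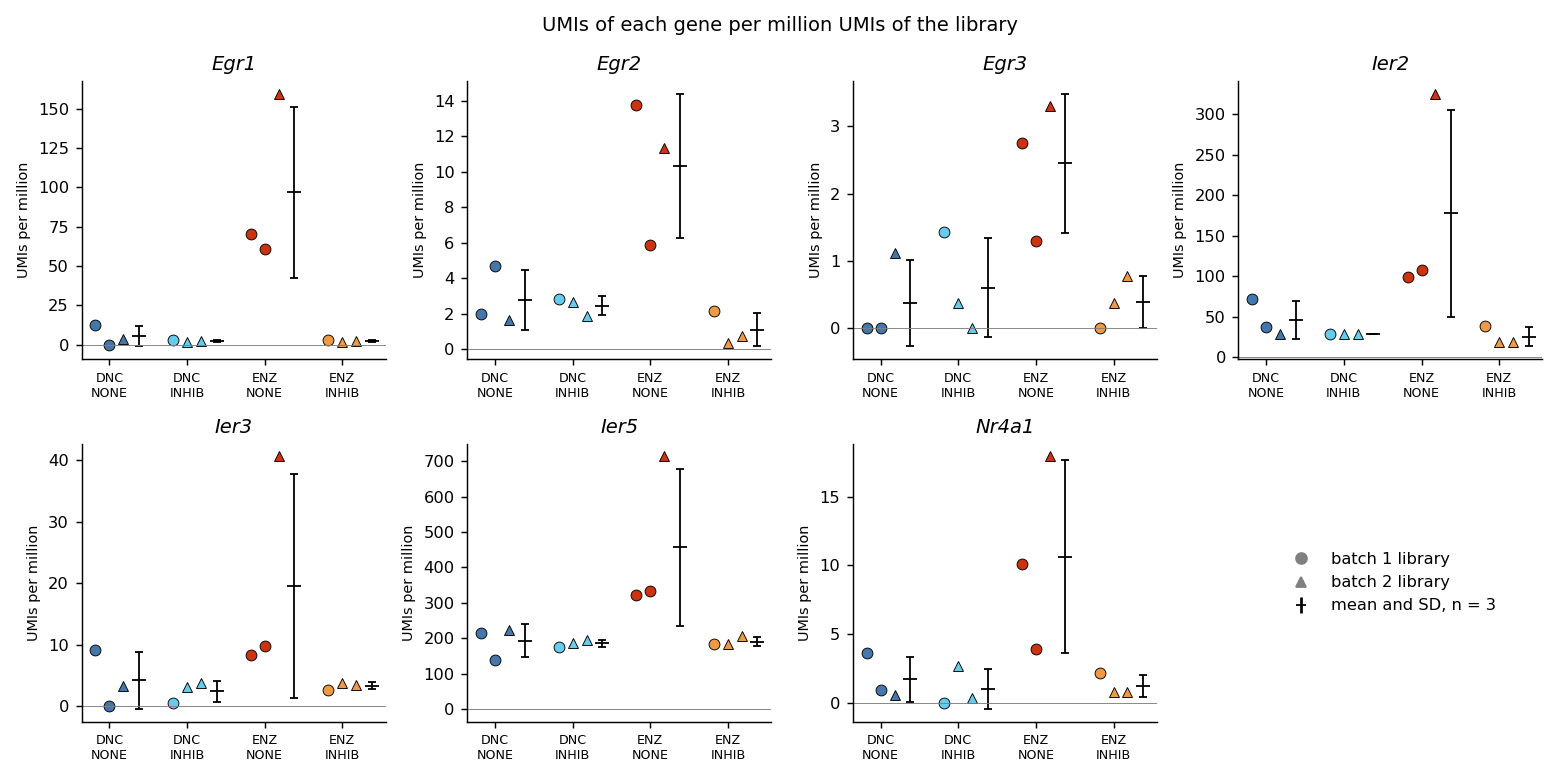
CPM of each gene (vertical axis, linear, 1 scale per gene) in the 4 groups, with 1 point per library, circles for batch 1 and triangles for batch 2, and the mean with its SD (n = 3). ENZ-NONE 6, the triangle in the ENZ-NONE column, was the highest library for Egr1, Egr3, Ier2, Ier3, Ier5 and Nr4a1, and ENZ-NONE 4 for Egr2.

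Egr1, on chromosome 18 from 34859823 to 34864984 on the plus strand, showed the widest separation. Its UMIs numbered 153, 93 and 436 in ENZ-NONE 4, 5 and 6, against 31, 0 and 6 in DNC-NONE 1, 2 and 3. They numbered 6, 5 and 7 in DNC-INHIB 4, 5 and 6 and 5, 4 and 5 in ENZ-INHIB 1, 2 and 3. This was 60.5 to 159.7 CPM in ENZ-NONE and at most 12.4 CPM in any other library. The order of group means in CPM was ENZ-NONE (96.8 ± 54.7, SD, n = 3), DNC-NONE (5.25 ± 6.42), DNC-INHIB (2.31 ± 0.492) and ENZ-INHIB (2.05 ± 0.599), and the 3 lower groups overlapped each other. The DNC-NONE mean rested on replicate 1, and the 0 in replicate 2 allows up to 2.83 CPM (3 counts).

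Egr2, which shares the DNA site of Egr1 and is used by macrophages during differentiation, was scarce. It gave 30, 9 and 31 UMIs in ENZ-NONE 4, 5 and 6, against 5, 5 and 3 in DNC-NONE 1, 2 and 3. DNC-INHIB 4, 5 and 6 held 6, 7 and 6, and ENZ-INHIB 1, 2 and 3 held 4, 1 and 2. ENZ-NONE ran from 5.86 to 13.8 CPM and the other libraries from 0.377 to 4.72, so the groups did not overlap, but ENZ-NONE 5 was close to DNC-NONE 2.

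Egr3, a further member of the family, was barely detected, with 6, 2 and 9 UMIs in ENZ-NONE 4, 5 and 6 and 0 to 3 in each other library. Summed over 3 libraries, 17 UMIs in ENZ-NONE stood against 2 in DNC-NONE, a ratio of summed CPM of 7.07 with a 95% exact counting interval of 1.68 to 63.1. Against 4 UMIs in DNC-INHIB the ratio was 5.25 (1.71 to 21.5) and against 3 in ENZ-INHIB 6.22 (1.80 to 33.1). These intervals cover counting error only and compare pooled libraries, not the conditions. In CPM, ENZ-NONE 5 (1.30) lay below DNC-INHIB 4 (1.43), so the groups overlapped.

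Nr4a1 gave 22, 6 and 49 UMIs in ENZ-NONE 4, 5 and 6, against 9, 1 and 1 in DNC-NONE 1, 2 and 3, 0, 7 and 1 in DNC-INHIB 4, 5 and 6, and 4, 2 and 2 in ENZ-INHIB 1, 2 and 3. In CPM, ENZ-NONE 5 (3.90) lay just above DNC-NONE 1 (3.60), and the groups did not overlap. The ratio of summed CPM was 5.82 against DNC-NONE (95% counting interval 3.08 to 12.1), 11.9 against DNC-INHIB (5.75 to 28.5) and 10.6 against ENZ-INHIB (5.10 to 25.3). Neither Egr3 nor Nr4a1 passed the low-count filter of the gene-wise test in any comparison, so neither has a fold change from it. Leaving out a library let Nr4a1 past the filter in some fits. Against DNC-INHIB, edgeR called it without ENZ-NONE 5 (3.82 on the log2 scale, adjusted p = 0.0157) or DNC-INHIB 5 (5.62, 0.0178). It was not called without ENZ-NONE 4 (edgeR adjusted p = 0.0722), DNC-INHIB 4 (0.162) or DNC-INHIB 6 (0.201). Against ENZ-INHIB, edgeR called it without ENZ-NONE 5 (3.64, adjusted p = 0.00381). It was not called without ENZ-NONE 4 (edgeR adjusted p = 0.0581) or ENZ-INHIB 1, 2 or 3 (0.0854, 0.257 and 0.411). ENZ-NONE 5 was the lowest library of its group for Nr4a1 and DNC-INHIB 5 the highest of its own. Against DNC-NONE no such fit called it.

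Ier2, an early response gene of the nucleus, gave 217, 165 and 888 UMIs in ENZ-NONE 4, 5 and 6. DNC-NONE 1, 2 and 3 held 180, 39 and 51, DNC-INHIB 4, 5 and 6 held 60, 76 and 94, and ENZ-INHIB 1, 2 and 3 held 72, 49 and 47. ENZ-NONE ran from 99.6 to 325 CPM, above the 72.0 of DNC-NONE 1 and the 18.3 to 38.8 of the other 8 libraries. ENZ-NONE 6 was over 3 times as high as either of its group mates, and DNC-NONE 1 was the one library outside ENZ-NONE that stood clear of the rest.

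Ier3 was uneven, with 18, 15 and 111 UMIs in ENZ-NONE 4, 5 and 6. DNC-NONE 1, 2 and 3 held 23, 0 and 6, DNC-INHIB 4, 5 and 6 held 1, 8 and 12, and ENZ-INHIB 1, 2 and 3 held 5, 10 and 9. ENZ-NONE 4 (8.26 CPM) lay below DNC-NONE 1 (9.20), so the groups overlapped, and the ENZ-NONE mean of 19.6 ± 18.3 CPM (SD, n = 3) was carried by replicate 6 at 40.7.

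Ier5 was detected in every preparation. It gave 699, 514 and 1948 UMIs in ENZ-NONE 4, 5 and 6, against 538, 148 and 404 in DNC-NONE 1, 2 and 3. DNC-INHIB 4, 5 and 6 held 368, 494 and 628 and ENZ-INHIB 1, 2 and 3 held 340, 484 and 526. ENZ-NONE stood at 321, 334 and 714 CPM, above the 139.7 to 224 of the other 9 libraries. The 3 lower groups could not be ordered beyond their spread, with mean CPM of 193 ± 46.5 for DNC-NONE, 190.2 ± 12.8 for ENZ-INHIB and 186 ± 9.77 for DNC-INHIB (SD, n = 3 each).

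The 3 comparisons of ENZ-NONE ask what the warm digestion without inhibitors changed, and they share the ENZ-NONE libraries. UMI sums per library were compared by edgeR's quasi-likelihood test with Benjamini-Hochberg adjustment over all genes, and a gene was called at an adjusted p under 0.05 and an absolute log2 fold change over 0.58. Against DNC-NONE, 1 of 5 members tested was called higher, against a background of 0.312% of 9298 genes called higher and 0.409% called in either direction. Of the 5, Egr1, Egr2 and Ier3 passed the low-count filter only in comparisons that held ENZ-NONE. The counts of members tested and called, here and below, therefore rest partly on that group and are no independent support. Egr1 was higher by 3.93 on the log2 scale (SE 0.541, edgeR adjusted p = 0.00671). By edgeR, Egr2 (2.14, adjusted p = 0.1002), Ier2 (1.97, 0.138), Ier3 (2.05, 0.516) and Ier5 (1.28, 0.121) were not called, and all 5 had an unadjusted p under 0.05. Without DNC-NONE 1 alone, Egr1 was called (5.58 on the log2 scale, edgeR adjusted p = 0.00559) and Ier3 was not (3.36, 0.428). The Egr1 call was lost without DNC-NONE 3 (3.62, adjusted p = 0.0947) and with DESeq2 (4.21, 0.106), which called none of the 5. Without ENZ-NONE 6 alone, the log2 fold changes were 1.11 for Ier2, 0.79 for Ier3 and 0.76 for Ier5, and Ier5 was then called (edgeR adjusted p = 0.0446). Without both DNC-NONE 1 and ENZ-NONE 6, edgeR called Egr1 (4.94, adjusted p = 4.01e-09), Ier2 (1.72, 2.76e-07) and Ier5 (0.83, 0.00200), while the count of all genes called rose from 38 to 117. Egr1 and Ier5 are on the study's lists of activation genes, one of which was drawn up on these samples, so their direction is not independent evidence.

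Against DNC-INHIB, all 5 members tested were called higher, against 0.482% of 9546 genes called higher and 0.807% called in either direction. As above, Egr1, Egr2 and Ier3 were tested only because ENZ-NONE entered. Egr1 was higher by 5.48 on the log2 scale (SE 0.473, edgeR adjusted p = 2.59e-05), Ier3 by 3.04 (SE 0.654, 0.0474), Ier2 by 2.71 (SE 0.397, 0.00319), Egr2 by 2.18 (SE 0.377, 0.0109) and Ier5 by 1.35 (SE 0.248, 0.0173). The Egr1 call alone was kept whichever library was left out, with log2 fold changes of 4.85 to 5.72. Without DNC-INHIB 4 Egr1 alone was called, with an edgeR adjusted p of 0.0510 for Ier2. Without DNC-INHIB 5 or 6, Egr1 and Ier2 were the members of the 5 still called. By edgeR without ENZ-NONE 4, Egr2 was not called (adjusted p = 0.0721), and without ENZ-NONE 5 (0.0501) or 6 (1.76 on the log2 scale, 0.0560) Ier3 was not. Ier3 was also not called by edgeR with all deposited cells (3.02, adjusted p = 0.0756), where Nr4a1 passed the filter and was called (2.91, 0.0448), or with sums of thinned cells (2.67, 0.0752). DESeq2 called Egr1, Egr2 and Ier2.

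Against ENZ-INHIB, which differs by the inhibitors, 3 of 5 members tested were called higher, against 0.369% of 9473 genes. Egr1 was higher by 5.66 on the log2 scale (SE 0.510, edgeR adjusted p = 7.49e-05), Egr2 by 3.39 (SE 0.509, 0.00674) and Ier2 by 2.96 (SE 0.453, 0.00783). By edgeR, Ier3 (2.66, adjusted p = 0.147) and Ier5 (1.32, 0.0533) were not called. Without ENZ-INHIB 2 or 3 Egr1 alone was called, with edgeR adjusted p-values for Ier2 of 0.0730 and 0.190. With all deposited cells Egr2 was not called (2.35, edgeR adjusted p = 0.368). Ier5 was called by edgeR when ENZ-NONE 4, 5 or 6 was left out (adjusted p = 0.0146, 0.0251 and 4.70e-05), at a log2 fold change of 0.79 without ENZ-NONE 6. Ier3 was called without ENZ-NONE 4 (3.05, edgeR adjusted p = 0.0225). Egr1 was called whichever library was left out, at 5.02 to 5.89. DESeq2 called Egr1, Egr2 and Ier2.

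**Figure D2:**
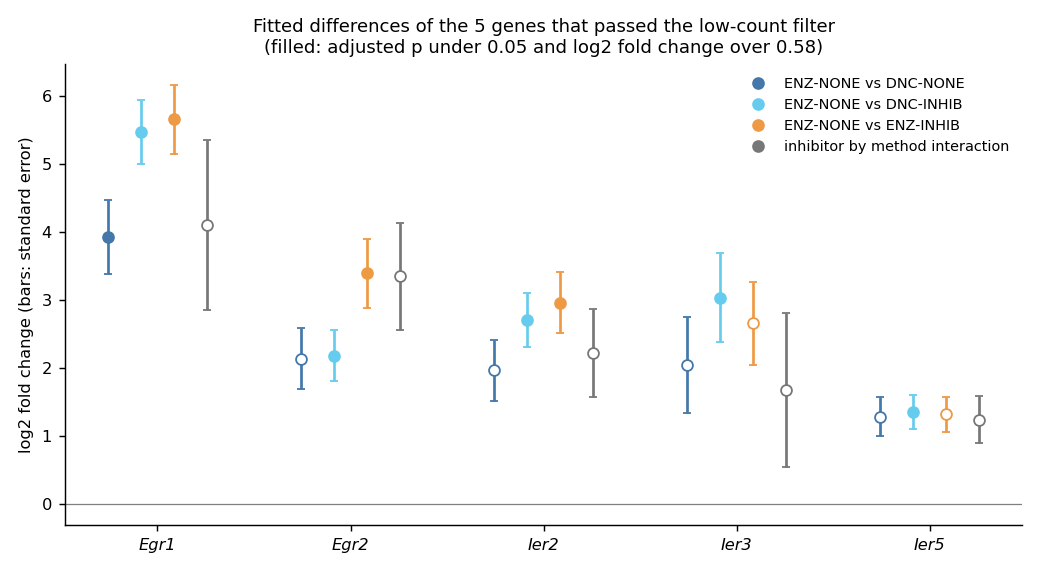
Log2 fold changes with their standard errors (vertical axis) of the 5 genes that passed the low-count filter, for the 3 comparisons of ENZ-NONE and for the interaction of inhibitors with method. Filled points were called, and Egr1 is filled in all 3 comparisons while no gene is filled for the interaction.

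The comparisons without ENZ-NONE ask what the inhibitors changed in the cold preparation and what the method changed once inhibitors were present. Only Ier2 and Ier5 passed the filter there and neither was called by edgeR or by DESeq2 in any of the 3, with Benjamini-Hochberg adjustment. Of all genes, 0.0314% were called in either direction, all higher, for DNC-NONE against DNC-INHIB. For ENZ-INHIB against DNC-INHIB 0.343% were called, 0.0312% higher, and for ENZ-INHIB against DNC-NONE 0.349%, 0.0106% higher. Ier2 was 0.74 higher on the log2 scale in DNC-NONE than in DNC-INHIB (SE 0.248, edgeR adjusted p = 0.780), and 0.13 higher without DNC-NONE 1. It differed by -0.99 between ENZ-INHIB and DNC-NONE (SE 0.313, edgeR adjusted p = 0.251), and these were the 2 values with an unadjusted p under 0.05. It differed by -0.25 between ENZ-INHIB and DNC-INHIB (SE 0.215, edgeR adjusted p = 0.732). Ier5 differed by 0.07 (SE 0.140), 0.04 (SE 0.0888) and -0.03 (SE 0.146, n = 3 libraries a group) in the same order of comparisons.

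The interaction, which asks whether omitting inhibitors changed more in the enzymatic than in the Dounce preparation, called 0 of 5 members with edgeR in all 12 libraries, against 0.172% of 9882 genes, and 0 with DESeq2. Unadjusted, 4 of the 5 had a p under 0.05. By edgeR the values were 4.11 (SE 1.25, adjusted p = 0.947) for Egr1, 3.35 (SE 0.787, 0.226) for Egr2, 2.22 (SE 0.645, 0.865) for Ier2, 1.67 (SE 1.14) for Ier3 and 1.24 (SE 0.342, 0.661) for Ier5. Without DNC-NONE 1 and ENZ-NONE 6, edgeR called Egr1 (5.14, adjusted p = 0.000329) and Ier2 (1.98, 0.000672), and all genes called went from 17 to 28.

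ENZ-NONE 6 was the only ENZ-NONE library of batch 2, so its height and its batch cannot be told apart. Within batch 1, Egr1 CPM was 10.5 times as high in ENZ-NONE as in DNC-NONE, 22.9 times as in DNC-INHIB and 24.3 times as in ENZ-INHIB. Within batch 2 the ratios were 48.0, 78.6 and 92.4. Ier5 was 1.85, 1.87 and 1.79 times as high within batch 1 and 3.18, 3.74 and 3.68 times within batch 2. Ier2 was 1.90, 3.63 and 2.67 times as high within batch 1 and 11.5, 11.2 and 17.7 times within batch 2. Every member with UMIs in both groups compared was higher in ENZ-NONE within each batch. These are ratios of 1 or 2 libraries and carry no test.

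To separate the number of positive cells from depth, each cell was thinned at random to 1000 UMIs and called positive for a gene with at least 1 UMI left. No class of sorted cells is known to lack these genes, so a background from free RNA was not measured. For Ier5, 25.0%, 25.4% and 43.1% of cells were positive in ENZ-NONE 4, 5 and 6, and 13.8% to 20.1% in the other 9 libraries. For Ier2, the shares were 5.92%, 5.72% and 17.05% in ENZ-NONE, against 5.71% in DNC-NONE 1 and 1.95% to 3.38% in the remaining 8. Neither ENZ-NONE 4 nor ENZ-NONE 5 could thus be told apart from DNC-NONE 1 for Ier2 at this depth. In that order, their exact Clopper-Pearson 95% intervals were 4.81% to 7.21%, 4.43% to 7.25% and 4.69% to 6.87%. Without thinning, DNC-NONE 1 (7.94%) lay above ENZ-NONE 4 (7.58%) and ENZ-NONE 5 (6.97%).

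Egr1 was positive in 4.90%, 4.20% and 9.50% of ENZ-NONE cells, and in 1.14% of cells of DNC-NONE 1 (95% interval 0.708% to 1.74%) and at most 0.294% of any other library. In DNC-NONE 2, 0 of 853 cells were positive, which allows a share of up to 0.352%. Egr2 was positive in 1.15%, 0.447% and 1.03% of ENZ-NONE cells and 0.0597% to 0.294% of the others. Egr3 was positive in 0.0894% to 0.255% of ENZ-NONE cells and at most 0.0648% elsewhere, 8 and 2 cells in all. Ier3 was positive in 0.764%, 0.715% and 3.32% of ENZ-NONE cells and in 1.03% in DNC-NONE 1, and Nr4a1 in 0.892%, 0.268% and 1.20% against 0.272% in DNC-NONE 1. Counting error alone spans the gap to the highest other libraries for Egr3 and Egr2, and in ENZ-NONE 4 and 5 for Nr4a1 too. For Egr2 the 95% intervals of ENZ-NONE 4, 5 and 6 began at 0.681%, 0.145% and 0.611%, while that of DNC-NONE 2 reached 0.844%. For Nr4a1 those of ENZ-NONE 4 and 5 began at 0.488% and 0.0553%, while that of DNC-NONE 1 reached 0.633%.

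All 3 ENZ-NONE shares lay above the other 9 for 5 of the 7 genes, Egr1, Egr2, Egr3, Ier2 and Ier5. Of the 5 genes that passed the filter it was 4, and over all 9882 genes tested it was 0.708%. In pairs of groups without ENZ-NONE, Egr1, Egr2 and Ier3 did not pass the filter. For Ier2 the lowest ENZ-NONE share, 5.72%, stood against 5.71% in DNC-NONE 1. Without thinning, where ENZ-NONE shares reached 12.3% for Egr1, 22.4% for Ier2 and 55.4% for Ier5, the order held for 3 of the 7, Egr1, Egr2 and Ier5, and for 0.536% of all genes. For CPM, 5 of the 7 lay above, Egr1, Egr2, Ier2, Ier5 and Nr4a1, against 0.729% of all genes. With DNC-NONE 1 and ENZ-NONE 6 both left out, the thinned shares of the 2 remaining ENZ-NONE libraries lay above the other 8 for all 7, and for 2.72% of all genes.

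**Figure D3:**
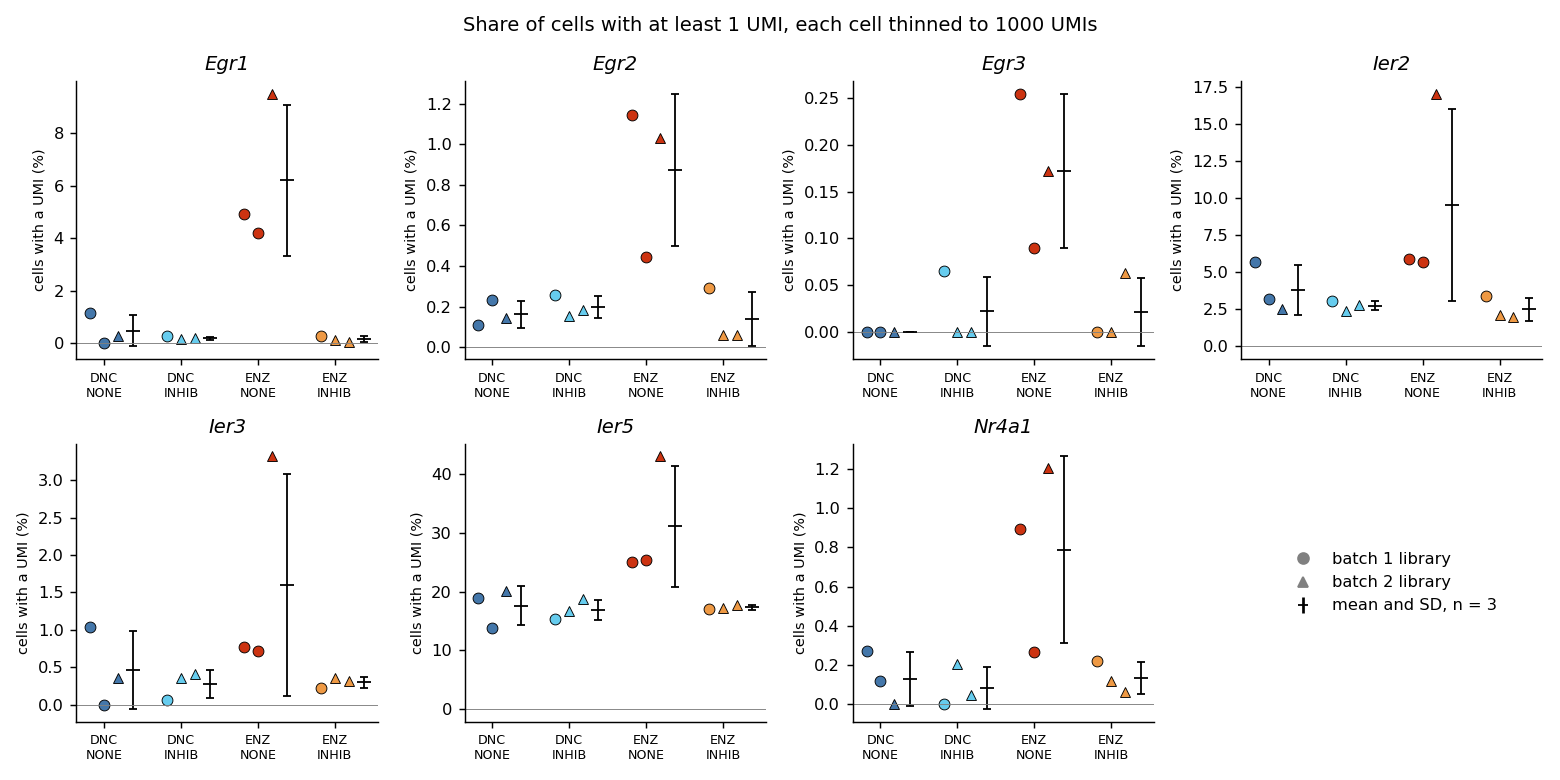
Share of cells with at least 1 UMI of each gene after thinning every cell to 1000 UMIs (vertical axis in percent, 1 scale per gene), with 1 point per library, circles for batch 1 and triangles for batch 2, and the mean with its SD (n = 3). For Ier3 and Nr4a1 the point of DNC-NONE 1 lies above the lowest ENZ-NONE point, and for Ier2 it lies just below.

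Pooled over the cells of a group and after thinning, a positive cell in ENZ-NONE held 1.75 UMIs of Ier2, and in DNC-NONE 1.09, with 1.06 for DNC-INHIB and 1.08 for ENZ-INHIB. For Ier5 it held 1.52, against 1.14, 1.12 and 1.13, and for Egr1 1.51, against 1.12, 1.09 and 1.00. By library, ENZ-NONE ran from 1.63 to 1.81 for Ier2 and 1.32 to 1.69 for Ier5, and no other library passed 1.15 for either. Ier3 (1.10) and Nr4a1 (1.05) stayed near 1 UMI per positive cell in ENZ-NONE. Egr2, with few positive cells, stood at 1.24 in ENZ-NONE, below the 1.5 of DNC-NONE and the 1.45 of DNC-INHIB and above the 1.00 of ENZ-INHIB. Egr3 stood at 1.38 over 8 positive cells in ENZ-NONE, and the 2 positive cells elsewhere held 1 UMI each. No test was made of these values. Before thinning, the most UMIs in a cell were 22 of Ier2, 11 of Ier5 and 10 of Egr1, all in ENZ-NONE 6, against at most 6, 4 and 3 outside ENZ-NONE.

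Cells with more than 1 of the genes were commonest in ENZ-NONE. Cells with UMIs of at least 2 of the 7 genes made up 5.41%, 5.18% and 16.1% of ENZ-NONE 4, 5 and 6, against 0.469% to 1.74% in the other 9 libraries. If each gene were detected independently at its own share, 3.79%, 3.09% and 14.3% of ENZ-NONE cells would hold at least 2, so the observed shares were 1.43, 1.68 and 1.13 times that product. In the other libraries the same ratio ran from 0.857 to 1.66, so for the 7 genes as a whole it overlapped between groups. Cells with at least 3 of the genes made up 1.08%, 1.34% and 4.81% of ENZ-NONE, which is 17, 15 and 84 cells and 6.49, 13.1 and 3.54 times the product. Elsewhere at most 2 cells per library held 3 or more, too few for a ratio to be read. The fullest cells held 5, 6 and 4 of the 7 genes in ENZ-NONE 4, 5 and 6. Cells of a library share its preparation and are not replicates, so no test is given.

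**Figure D4:**
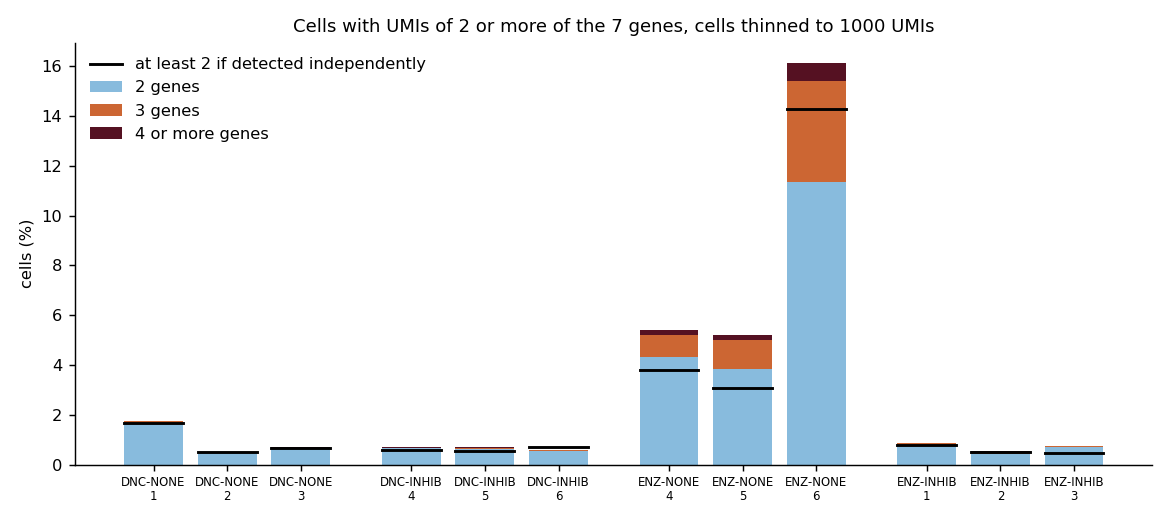
Share of cells (vertical axis in percent) with UMIs of 2, 3 or at least 4 of the 7 genes, stacked, in each of the 12 libraries after thinning to 1000 UMIs. Black lines give the share with at least 2 if the genes were detected independently, and the bars rise above them in ENZ-NONE 4, 5 and 6 (5.41%, 5.18% and 16.1% against 3.79%, 3.09% and 14.3%). Outside ENZ-NONE the bars stood at 0.857 (DNC-INHIB 6) to 1.66 (ENZ-INHIB 3) times their lines.

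Pair by pair, a ratio to the product of shares was taken where that product came to at least 5 cells in a library. This gave 12 values over 8 of the 21 pairs in ENZ-NONE, all above 1, from 1.22 to 2.76. Only Egr1 with Ier5 and Ier2 with Ier5 had a value in each ENZ-NONE library. All other pairs of the 8 had a value in ENZ-NONE 6 alone. Outside ENZ-NONE only Ier2 with Ier5 was common enough, and 4 of its 8 values exceeded 1. Egr1 with Ier5 stood at 1.71, 2.35 and 1.58 in ENZ-NONE 4, 5 and 6, and Ier2 with Ier5 at 1.46, 2.03 and 1.39. Egr1 with Ier2 was found in 78 cells of ENZ-NONE 6 where the product gives 28.3, a ratio of 2.76. In ENZ-NONE 4 and 5, where the product gives under 5 cells, they met in 23 cells against 4.56 and 19 against 2.69. Among Egr1-positive cells of ENZ-NONE 4, 5 and 6, 29.9%, 40.4% and 47.0% also held Ier2, against 4.69%, 4.20% and 13.9% of Egr1-negative cells. Ier2 with Ier5 stood at 0.786 to 1.02 in the 5 Dounce libraries that could be counted and at 1.02, 0.965 and 1.45 in ENZ-INHIB 1, 2 and 3.

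The rare positive cells outside ENZ-NONE also overlapped for some pairs. Summed over the 9 other libraries, Egr1 and Ier2 met in 13 cells where the products give 1.80, and 7 of these cells came from DNC-NONE 1. Egr2 and Ier2 met in 7 cells where the products give 0.710, and Egr1 and Egr2 in 6 where they give 0.0645. Ier2 and Ier5 met in 76 cells where the products give 76.8.

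Fos, the immediate early gene that pairs with Jun in AP-1, was set beside them. In ENZ-NONE 4, 5 and 6, 204, 162 and 679 cells held Fos UMIs after thinning. Egr1 was found in 18.6%, 16.7% and 20.9% of these and in 2.86%, 2.09% and 2.25% of Fos-negative cells. Ier2 was found in 13.7%, 17.3% and 29.2% against 4.76%, 3.76% and 9.35%, and Ier5 in 43.1%, 39.5% and 56.3% against 22.3%, 23.0% and 34.7%. Ier3 had means of 2.07% and 1.40%, and a lower share in the Fos-positive cells of ENZ-NONE 5. In Fos-negative cells Egr1 was no higher in ENZ-NONE 6 than in ENZ-NONE 4, while Ier2 and Ier5 were still highest in ENZ-NONE 6. In DNC-NONE 1, the 52 Fos-positive cells held no Egr1 (0 of 52, which allows up to 5.77%), against 1.18% of its Fos-negative cells.

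**Figure D5:**
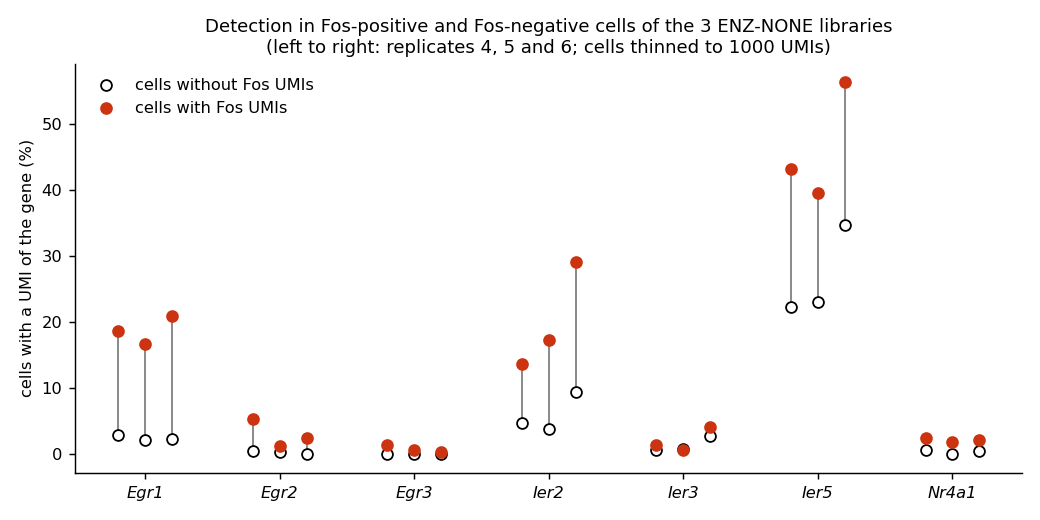
Share of cells with a UMI of each gene (vertical axis in percent) among Fos-positive (filled) and Fos-negative (open) cells of ENZ-NONE 4, 5 and 6, from left to right, after thinning to 1000 UMIs. Filled points lie above open points for Egr1, Egr2, Egr3, Ier2, Ier5 and Nr4a1 in all 3 libraries, and for Ier3 in ENZ-NONE 4 and 6.

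A few sorted cells carried at least 3 markers of border macrophages, which line the vessels and meninges of the brain. In ENZ-NONE 4, 5 and 6, 3 of 9, 2 of 6 and 2 of 18 such cells held Egr1, against 4.75%, 3.96% and 9.52% of the cells without macrophage, monocyte or dendritic cell markers. Ier2 was held by 3, 3 and 8 of these border macrophage cells, against 5.72%, 5.32% and 16.8% of marker-free cells. The Egr1 share of ENZ-NONE 6, which supplied 18 of the 33 cells, was thus close to that of its marker-free cells. In the other groups 0 of 59, 0 of 51 and 0 of 38 border macrophage cells held Egr1, and pooled over libraries Ier5 was found in 5.08%, 7.84% and 5.26% of them, against 18.5%, 17.2% and 17.5% of the marker-free cells. Ier2 was held by 7 of 19, 1 of 27 and 1 of 13 border macrophage cells in DNC-NONE 1, 2 and 3, so replicate 1 supplied 7 of the 9. It was held by 0 of 7, 2 of 23 and 2 of 21 in DNC-INHIB 4, 5 and 6 and by 3 of 12, 1 of 14 and 1 of 12 in ENZ-INHIB 1, 2 and 3. These are too few cells for a comparison of libraries. Without macrophage, monocyte and dendritic marker cells, 1, 5 and 4 members were called in the comparisons of ENZ-NONE with DNC-NONE, with DNC-INHIB and with ENZ-INHIB, of 37, 85 and 37 genes called in all, and the thinned share lay above the other 9 libraries for 6 of the 7 genes and for 0.688% of all genes.

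Of 36 other immediate early genes listed for comparison, 28 passed the filter, and 11, 15 and 13 were called higher in ENZ-NONE than in DNC-NONE, than in DNC-INHIB and than in ENZ-INHIB, with none called lower. Over all genes tested, 0.312%, 0.482% and 0.369% were called higher in these comparisons. The median log2 fold changes of the 28 were 1.19, 1.29 and 1.53, where the median of all genes lay within 0.01 of 0. The 8 highest among those called in all 3 comparisons were Fos, Dusp1, Fosb, Gem, Atf3, Jun, Klf2 and Zfp36. Fos, Fosb and Gem passed the low-count filter only in comparisons that held ENZ-NONE. The counts called therefore rest partly on that group and are no independent support. Fos was higher by 5.73, 8.60 and 8.34 on the log2 scale, Dusp1, a phosphatase that switches off MAP kinases, by 6.30, 6.83 and 6.55, and Zfp36, which destabilizes inflammatory messengers, by 2.84, 3.25 and 3.40. Fos, Jun and Dusp1 are among the genes the study names for activation in these samples. In the comparisons without ENZ-NONE, 0 of 25 tested were called between DNC-NONE and DNC-INHIB and between ENZ-INHIB and DNC-NONE (3 and 11 by edgeR at an unadjusted p under 0.05, 0 with DESeq2), and Klf2, named after its value was seen, was called lower in ENZ-INHIB than in DNC-INHIB (-0.91 on the log2 scale, edgeR adjusted p = 0.0108). Over all genes, 0.0314%, 0.349% and 0.343% were called in either direction in these comparisons, in the order given. The interaction called 7 of 28 higher, against 0.172% of all genes.

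The relatives of the 7 genes and the regulators that act on them were listed too. Of 21 listed, 16 passed the filter and 0 were called in any of the 7 comparisons by edgeR or DESeq2. Of all genes, edgeR called 0.0314% to 0.807% in either direction in these comparisons, so 0 of 16 lies near that share. At an unadjusted p under 0.05 there was 1, Mkl2, an SRF cofactor named after its value was seen (-0.58 against DNC-NONE, edgeR adjusted p = 0.693), and none in the other 6. The median log2 fold changes of ENZ-NONE were 0.04, 0.04 and 0.01. In the same order, Nab1 differed by 0.35, 0.29 and 0.20, Nab2 by 0.43, 0.18 and 0.17 and Srf by 0.18, 0.04 and 0.45, with edgeR adjusted p-values of 0.682 or more. Creb1, the CREB gene, differed by 0.25, 0.06 and 0.14. Egr4, Nr4a2 and Nr4a3 were among the 5 that failed the filter, so the closest relatives were not tested.

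Across the 12 libraries, the genes whose log2 CPM ran most like each member were as follows, given as Pearson's r with r over the 9 libraries outside ENZ-NONE after it. For Egr1 they were Fos (0.971, 0.763), Fosb (0.967, 0.784) and Zfp36 (0.966, 0.747). For Ier2 they were the AP-1 subunits Junb (0.977, 0.921) and Jun (0.960, 0.911) and the chemokine Ccl3 (0.954, 0.764), and for Egr2 Ccl3 (0.878, 0.587), Gem (0.878, 0.406) and the ubiquitin gene Ubb (0.873, 0.579). For Ier5 they were Txnip (0.984, 0.858), Klf6 (0.971, 0.655) and Nfkbid (0.944, 0.752), and for Ier3 Ppp1r3b (0.923, 0.819), Nfkbid (0.913, 0.820) and Txnip (0.912, 0.831). The values over 12 libraries rest largely on the gap between ENZ-NONE and the rest, the points share depth and batch, and the genes were the 3 highest of all tested, so the values are descriptions.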

How the data were processed

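Per the labels and the study's methods, sorted cells of 12 animals were run on the 10X 3' v2 chemistry, and the authors made 1 matrix of UMI counts per library with Cell Ranger 3.0.0 on mm10. The deposited counts are whole numbers, not normalized. The 7 genes and the gene lists were chosen with earlier results of these data known.

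Cells were kept from 500 genes and 1000 UMIs upwards, with mitochondrial UMIs of 10% or less. Cells with at least 3 genes and 5 UMIs of a non-myeloid list were then removed (3 cells, 0.0159% of those passing). This step is no doublet caller and none was run, so doublets remain. Of the deposited cells, 52.4% were kept in DNC-NONE, 71.4% in DNC-INHIB, 69.2% in ENZ-NONE and 73.8% in ENZ-INHIB. UMIs were summed per library and tested with edgeR 4.0.16 (filterByExpr, TMM, quasi-likelihood, Benjamini-Hochberg) in the 6 libraries of each pair, or 12 for the interaction. Standard errors (SE) of edgeR fold changes were derived as the absolute log2 fold change over the square root of the test's F statistic. With n = 3 a group, p-values measure the spread between animals. DESeq2 1.42.0, other scaling, filters, cell sets, a batch term and left-out libraries were the alternatives, and the tests were checked on simulated data. The pair of libraries left out together was chosen after seeing the data. Shares used cells thinned to 1000 UMIs with a fixed seed, and intervals are exact at 95% and cover counting error only. R 4.3.3 and Python 3.11.15 were used.

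All 7 genes are named. Of the other immediate early genes up to 8 are named, and of the relatives and regulators up to 6, by the number of ENZ-NONE comparisons in which they were called and then by mean log2 fold change, with Nab1, Nab2 and Srf named whatever their values. The 3 genes most alike to each tested member were taken by Pearson's r. RefSeq windows supplied the promoter sequences.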

Additional observations from a re-analysis of the deposited data

How the results depend on the processing

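Over the fold changes of the tested members, 430 alternative values were computed, of which 364 kept direction and side of the threshold, 36 newly passed it, 24 no longer did and 6 changed sign. Egr1 was called against DNC-INHIB and ENZ-INHIB under every alternative run. The count of members called against DNC-NONE, 1 as reported, was 2 with all deposited cells, 4 with thinned sums, 0 with DESeq2, 6 without the low-count filter, 4 with all 12 libraries in 1 fit, 2 with a batch covariate and 3 without both DNC-NONE 1 and ENZ-NONE 6, and 0 to 2 when single libraries were left out. In the same order, all genes called numbered 38, and 48, 41, 41, 203, 61, 47, 117 and 10 to 72. Against DNC-INHIB it was 5 (77 of all genes), 3 with DESeq2 (66), and 1 to 5 with single libraries left out (44 to 116). Against ENZ-INHIB it was 3 (35), 6 without the filter (141), 5 with the batch covariate (70), and 1 to 5 with single libraries left out (16 to 47). Without the filter it was 1 instead of 0 both for DNC-NONE against DNC-INHIB (87 of all genes) and for ENZ-INHIB against DNC-NONE (208), and 4 instead of 0 for the interaction (72 and 17 of all genes), which had 2 without DNC-NONE 1 and ENZ-NONE 6 (28). The cause was not tested. The 5 members whose share lay above the other libraries became 3 without thinning (0.536% of all genes, against 0.708%). The sign changes were all in Ier5 fold changes near 0, which ran with single libraries left out from -0.0400 to 0.24 for DNC-NONE against DNC-INHIB, from -0.0311 to 0.0812 for ENZ-INHIB against DNC-INHIB and from -0.20 to 0.0828 for ENZ-INHIB against DNC-NONE.

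Replicate numbers are shared by ENZ-NONE and DNC-INHIB and by ENZ-INHIB and DNC-NONE, and the labels do not say whether they pair the samples. Between ENZ-NONE and DNC-INHIB, deviations correlated at r of -0.0156 to 0.154 for same-numbered libraries and -0.145 to 0.0479 for others. Between ENZ-INHIB and DNC-NONE the ranges were -0.0812 to 0.0141 and -0.0386 to 0.0862. So few values cannot decide whether the numbers pair the samples, and the main fits treat them as unpaired. With the replicate block, 5 members were called for ENZ-NONE against DNC-INHIB, as without it. For ENZ-INHIB against DNC-NONE it was 1, Ier2 (-0.84, edgeR adjusted p = 0.00967). Outside ENZ-NONE, Egr3 had 0 to 3 and Nr4a1 0 to 9 UMIs per library, and neither passed the filter with the kept cells of all libraries.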
